A study of Rattus norvegicus with 16 samples.

Results

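The 8 dual-channel arrays described here set the liver of a male rat infused with growth hormone (GH) beside the liver of an untreated male. They were chosen by their titles, which name the GH-treated male first, out of 16 arrays in all; the other 8 compare females with untreated males. All animals were Fischer 344 rats aged 8 to 10 weeks. The treated males received rat GH without interruption from an implanted osmotic minipump, which delivered 2 µg every hour for each 100 g of body weight over 7 days. The untreated males are described as intact and untreated, and no sham pump is mentioned. Each array held labelled cDNA from the poly(A) RNA of 1 treated and 1 untreated liver, paired at random from 4 animals per group. There were 4 arrays of the MWG Rat Liver kind and 4 of the MWG Rat 5K kind, and the 5K arrays repeat the same pairings with cDNA labelled a further time. The 2 kinds therefore share their animals and are not independent of each other.

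The pituitary of an adult male rat releases GH in pulses with long gaps between them, while a female releases it more evenly, so that the hormone is nearly always present in the blood. In hepatocytes GH binds its receptor, activates the kinase JAK2 and through it the transcription factor STAT5b, whose dimers bind DNA at the palindrome TTCNNNGAA. The pattern of release is a well known regulator of liver genes that differ between the sexes, among them cytochrome P450 enzymes, sulfotransferases and urinary proteins. A pump that gives GH continuously to a male replaces his pulses with a female-like pattern, and the arrays asked which transcripts then change.

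A value on these arrays is the log2 ratio of the 2 channels, so a ratio of 1 stands for a doubling and a ratio of -1 for a halving. All ratios below are given as GH-infused over untreated. The labels do not state this direction. It is the likely one because it makes textbook male-biased genes low and female-biased genes high on the 8 sex arrays, which were turned in the same way. Each GH array was then read on its own. Among textbook genes more than 1 log2 unit from 0, 13 of 13, 14 of 14, 14 of 14 and 14 of 14 went the female way on Rat Liver arrays 1 to 4. On Rat 5K arrays 1 to 4 the counts were 12 of 13, 13 of 14, 8 of 8 and 11 of 12. Without this size limit a smaller share went the female way on both kinds. On Rat Liver arrays 1 to 4, 11 of 14, 16 of 18, 15 of 18 and 15 of 17 male-biased genes were below 0. Of the female-biased genes 5 of 7, 8 of 10, 9 of 10 and 8 of 10 were above 0. On 5K arrays 1 to 4, 17, 18, 16 and 14 of the 22 male-biased genes were below 0. There 7, 9, 7 and 8 of the 11 female-biased ones were above 0. The ratios carry no absolute level, so the tissue could not be checked by the abundance of hepatocyte genes, and a change in the number of cells of a type cannot be told apart from a change in RNA per cell.

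The 250 bases before the start of each gene were read from RefSeq (build GRCr8) to show what the regulated genes carry next to their start. The first 3 are the P450 genes Cyp2c11 at chr1:246174966-246175215 (plus strand), Cyp2c12 at chr1:248677035-248677284 (minus strand) and Cyp2c13 at chr1:248787189-248787438 (minus strand). They are shown because they are members of 1 gene family on 1 chromosome whose transcripts went opposite ways under GH.

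Cyp2c11: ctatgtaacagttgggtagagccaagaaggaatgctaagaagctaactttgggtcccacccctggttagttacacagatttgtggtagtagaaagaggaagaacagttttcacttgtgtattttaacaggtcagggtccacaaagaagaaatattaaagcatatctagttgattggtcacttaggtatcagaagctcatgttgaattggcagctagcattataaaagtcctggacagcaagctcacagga
Cyp2c12: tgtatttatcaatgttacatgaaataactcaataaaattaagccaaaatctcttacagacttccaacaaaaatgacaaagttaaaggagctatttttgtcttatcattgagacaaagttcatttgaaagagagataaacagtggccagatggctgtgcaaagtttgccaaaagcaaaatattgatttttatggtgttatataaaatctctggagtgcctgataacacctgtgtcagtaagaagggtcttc
Cyp2c13: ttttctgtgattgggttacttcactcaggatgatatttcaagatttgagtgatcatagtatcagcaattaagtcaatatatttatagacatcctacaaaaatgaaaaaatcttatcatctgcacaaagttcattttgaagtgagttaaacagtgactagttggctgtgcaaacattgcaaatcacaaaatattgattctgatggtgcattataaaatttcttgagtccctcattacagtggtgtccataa

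The Cyp2c12 and Cyp2c13 stretches were identical in 63.1% of the columns of a global alignment, Cyp2c11 and Cyp2c12 in 53.2%, and Cyp2c11 and Cyp2c13 in 52.5%. None of the 3 holds TTCNNNGAA in this window, which says only that these letters are not there. Another 5 are shown because each holds the motif, printed in capitals, and belongs to a gene called on both kinds of array. Itih4 at chr16:6086735-6086984 (plus strand) and Kng2l1 at chr11:91483169-91483418 (plus strand) rose. Fga at chr2:170671919-170672168 (plus strand), Baat at chr5:68656138-68656387 (minus strand) and Ces1f at chr19:29969383-29969632 (plus strand) fell.

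Itih4: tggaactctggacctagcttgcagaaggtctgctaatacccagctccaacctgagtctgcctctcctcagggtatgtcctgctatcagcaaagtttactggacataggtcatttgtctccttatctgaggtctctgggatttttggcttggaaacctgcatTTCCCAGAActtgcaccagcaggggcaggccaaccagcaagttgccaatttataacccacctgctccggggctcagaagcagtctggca
Kng2l1: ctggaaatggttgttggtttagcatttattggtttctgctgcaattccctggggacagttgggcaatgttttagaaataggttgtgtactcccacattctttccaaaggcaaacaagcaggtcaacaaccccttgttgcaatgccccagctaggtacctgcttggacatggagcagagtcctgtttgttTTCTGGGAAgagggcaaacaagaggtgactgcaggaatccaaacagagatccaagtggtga
Fga: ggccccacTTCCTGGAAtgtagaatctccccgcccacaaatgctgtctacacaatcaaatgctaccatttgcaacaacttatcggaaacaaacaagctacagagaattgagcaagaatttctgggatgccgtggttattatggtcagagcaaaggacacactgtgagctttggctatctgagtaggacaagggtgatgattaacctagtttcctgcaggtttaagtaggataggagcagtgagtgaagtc
Baat: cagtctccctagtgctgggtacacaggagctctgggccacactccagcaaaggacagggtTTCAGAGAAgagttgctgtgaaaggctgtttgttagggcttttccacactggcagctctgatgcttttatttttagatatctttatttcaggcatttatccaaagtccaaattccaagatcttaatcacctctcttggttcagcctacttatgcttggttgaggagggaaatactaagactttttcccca
Ces1f: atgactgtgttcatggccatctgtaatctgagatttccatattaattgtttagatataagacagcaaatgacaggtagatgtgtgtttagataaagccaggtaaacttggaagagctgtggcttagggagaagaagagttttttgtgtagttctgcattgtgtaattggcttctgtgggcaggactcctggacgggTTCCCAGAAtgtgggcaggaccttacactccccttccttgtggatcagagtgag

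The first base of the motif lies 89 bases before the start in Itih4, 61 in Kng2l1, 242 in Fga, 190 in Baat and 54 in Ces1f. Among the named genes called on the Rat Liver arrays, 3 of the 16 higher genes with a RefSeq promoter held it (18.8%: Gsta3, Itih4 and Kng2l1) and 4 of the 20 lower ones (20%: Baat, Ces1f, Fga and Gclm). It was found in 8.08% of the promoters of all genes tested on these arrays and in 7.52% of all 27456 promoters. The motif reads the same on both strands. The letters TTGCNNAA, part of the site of C/EBP factors and searched on both strands, stood in 7 of the 16 higher promoters (43.8%) and in 2 of the 20 lower ones (10%), against 10.5% for all genes tested. Among the genes called on the 5K arrays with a term for the order of the dyes they stood in 5 of 26 higher promoters (19.2%) and 4 of 31 lower ones (12.9%), against 8.35% for all genes tested there. Also searched was the FOXA motif TGTTTAC. It stood in 2 of the 16 higher Rat Liver promoters (12.5%) and 1 of the 20 lower ones (5%), against 2.84% for all tested. On the 5K arrays it stood in 1 of 26 higher (3.85%) and 3 of 31 lower ones (9.68%), against 2.23%. These are counts of letters in short windows of few genes, with no test.

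On the Rat Liver arrays under continuous GH, steroid hydroxylases and sulfotransferases known as male-specific were low, and so was the urinary protein gene Mup5. A smaller set led by the female-specific Cyp2c12 was high. Of 985 features with a value on all 4 arrays, limma's test called 53 at a Benjamini-Hochberg adjusted p under 0.05, which is 5.38% of those tested. The call was up for 22 features (2.23%) and down for 31 (3.15%). Every one of the 53 had the same sign on all 4 arrays. A change beyond 2-fold was seen for 8 of the higher and 10 of the lower features. Of the 53 features 45 carry a single gene symbol, 18 higher and 27 lower. The median log2 ratio over all features tested was -0.02.

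**Figure D1:**
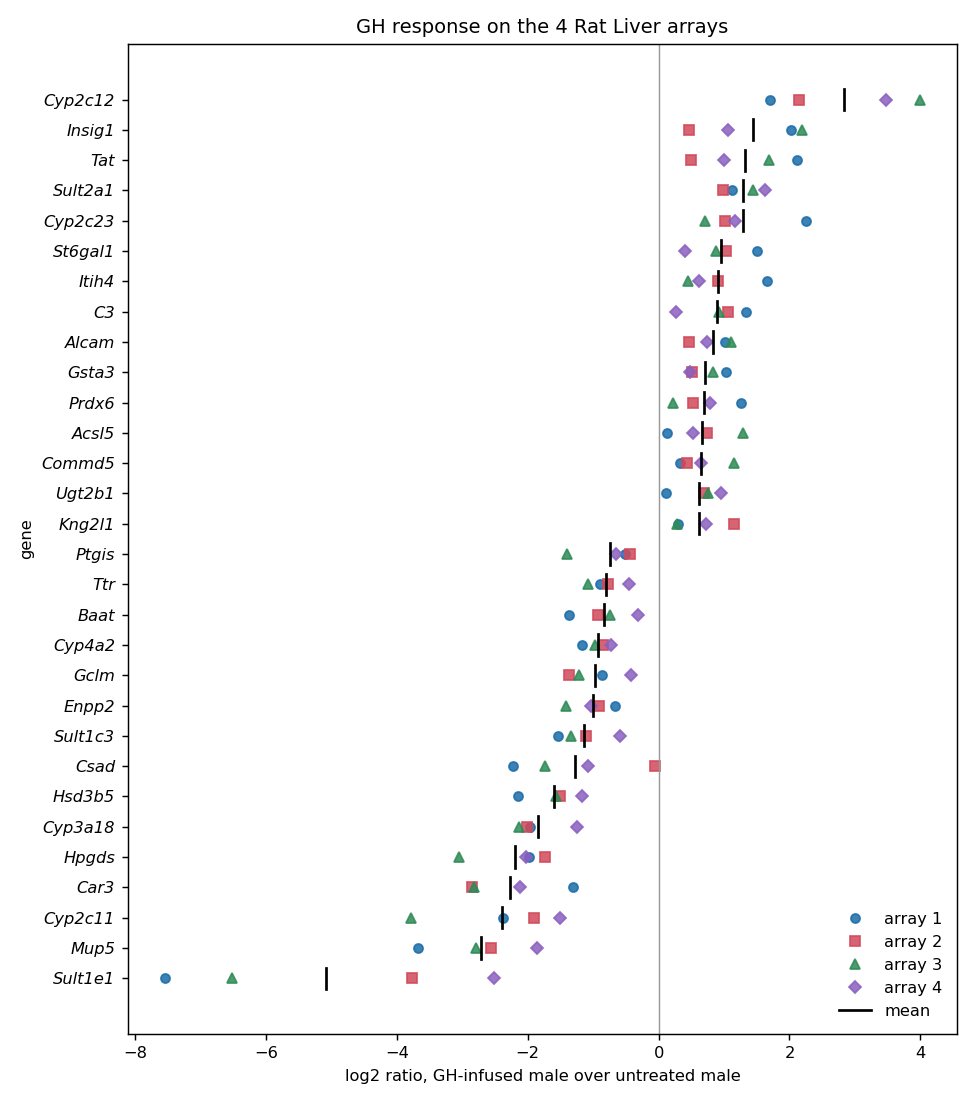
Log2 ratio of GH-infused over untreated male on each of the 4 Rat Liver arrays (symbols) and their mean (black bar) for the 15 highest and 15 lowest named genes called by limma. All 4 symbols of each gene lie on the same side of 0; Sult1e1 is lowest, with a mean of -5.09, and Cyp2c12 highest, with 2.83.

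The P450 genes moved in both directions. Cyp2c11, the main steroid hydroxylase of the male rat liver, had log2 ratios of -2.38, -1.91, -3.78 and -1.51 on Rat Liver arrays 1 to 4. It was low on every array and lowest on array 3, with a mean of -2.40 ± 0.99 (SD, n = 4, adjusted p = 0.0236), a 5.26-fold decrease. Cyp2c12, which hydroxylates steroid sulfates and is the classic female-specific P450, gave 1.70, 2.14, 3.99 and 3.48. It was high on every array, with a mean of 2.83 ± 1.08 (adjusted p = 0.00980), a 7.10-fold increase. On each array Cyp2c12 was thus above 0 and Cyp2c11 below it.

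Cyp3a18, a testosterone hydroxylase of the CYP3A family, had ratios of -1.96, -2.02, -2.14 and -1.25, a mean of -1.84 ± 0.40 (adjusted p = 0.00456). Cyp4a2, a fatty acid omega-hydroxylase, lay between -1.17 and -0.73 on the 4 arrays, with a mean of -0.93 ± 0.19 (adjusted p = 0.0396). Cyp2a1, a steroid hydroxylase listed among female-biased genes, fell by less, to a mean of -0.54 ± 0.26 (adjusted p = 0.0479). Cyp2c23, an epoxygenase of arachidonic acid, rose with ratios of 2.25, 1.02, 0.71 and 1.16 and a mean of 1.29 ± 0.67 (adjusted p = 0.00775). Array 1 was the highest and all 4 were above 0. Together, 2 of the 22 P450 genes tested rose and 4 fell, against 2.23% and 3.15% of all features. Their median was 0.02, close to that of all features. Cyp2c7, another female-predominant P450, had values on 3 arrays only (0.71, 0.37 and 1.17 on arrays 2 to 4). When 3 values sufficed it did not pass the test (mean 0.75, adjusted p = 0.0935).

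The lowest ratio of all belonged to a sulfotransferase. Sult1e1, the estrogen sulfotransferase that inactivates estrogens, had ratios of -7.54, -3.77, -6.52 and -2.51. All 4 were far below 0 but spread widely, with a mean of -5.09 ± 2.34 (adjusted p = 0.00459), a 34.0-fold decrease. Sult1c3, of the phenol sulfotransferase group, fell on every array (-1.53, -1.10, -1.34 and -0.59, mean -1.14 ± 0.41, adjusted p = 0.0180). Sult2a1, which sulfates hydroxysteroids and bile acids, went the other way with 1.13, 0.98, 1.44 and 1.63. Its mean was 1.30 ± 0.29 (adjusted p = 0.0119), and its 2 probes gave 1.29 and 1.31. Sult2a2, a close relative, had 0.78, 1.71 and 2.04 on the 3 arrays that measured it, a mean of 1.51 that sat at the threshold (adjusted p = 0.05). Sult1a1, the general phenol sulfotransferase, had a mean of -0.06 (adjusted p = 0.846).

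Among the other conjugating enzymes, Gsta3, a glutathione transferase, rose to 0.71 ± 0.27 (adjusted p = 0.0236) and Ugt2b1, a steroid glucuronosyltransferase, to 0.62 ± 0.36 (adjusted p = 0.0377). Hpgds, the glutathione-dependent prostaglandin D synthase, fell with ratios of -1.97, -1.74, -3.05 and -2.03 and a mean of -2.20 ± 0.58 (adjusted p = 0.00367). Of 15 conjugating enzymes tested 3 rose and 3 fell, against 2.23% and 3.15% of all features. Members of the Cyp2c, Sult2a, Mup and Gst families are alike in sequence. The probe sequences were not used here, so how far a probe also bound a relative's transcript was not tested.

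Other enzymes and secreted proteins known to be higher in males were lowered as well. Mup5, of the major urinary proteins that carry pheromones, had ratios of -3.68, -2.55, -2.78 and -1.86 and a mean of -2.72 ± 0.75 (adjusted p = 0.0389). Car3, a carbonic anhydrase abundant in male rat liver, gave -1.31, -2.85, -2.81 and -2.12, a mean of -2.27 ± 0.73 (adjusted p = 0.0102). Hsd3b5, a hydroxysteroid dehydrogenase that reduces androgens, gave -2.15, -1.50, -1.57 and -1.18, a mean of -1.60 ± 0.41 (adjusted p = 0.0128). In each of the 3 the 4 arrays were all below -1. Hsd11b1, which regenerates active glucocorticoid, was measured on arrays 2 to 4 only, at -2.96, -2.54 and -1.53. The peroxisomal hydroxyacid oxidase Hao2 was measured on arrays 1 to 3, at -2.91, -2.85 and -1.20. Both passed when 3 values were enough, with means of -2.34 ± 0.73 and -2.32 ± 0.97 (SD, n = 3, adjusted p = 0.00315 and 0.00911 in that fit).

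Of the 13 textbook male-biased genes tested on all 4 arrays, 9 fell and none rose, against 3.15% of all features that fell, and their median ratio was -1.60. The 4 that did not pass were Cyp2c22 (0.16), Sult1a1 (-0.06), Egfr (-0.12) and Serpina3n (0.05). Of the 7 female-biased genes tested, 3 rose (Cyp2c12, Sult2a1 and St6gal1) and 1 fell (Cyp2a1). Their median was 0.62, and 2.23% of all features rose. A1bg, a plasma protein gene higher in female rats, had -0.57 on array 1 but 0.75, 1.17 and 1.13 on the others and did not pass (mean 0.62, adjusted p = 0.233). These lists were written with earlier results of these data known and also served to find the direction, so their counts are a description and no independent evidence.

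In fatty acid and sterol metabolism few genes were called. Insig1, which holds the SREBP precursor in the endoplasmic reticulum and is itself a target of SREBP, had ratios of 2.02, 0.47, 2.18 and 1.06. It was above 0 on every array and highest on arrays 1 and 3, with a mean of 1.43 ± 0.81 (adjusted p = 0.0169). Acsl5, an acyl-CoA synthetase that activates long-chain fatty acids, had 0.12, 0.74, 1.29 and 0.52, a mean of 0.67 ± 0.49 (adjusted p = 0.0479). Fasn and Acly, which make fatty acids and the acetyl-CoA for them, had means of 0.44 and 0.52 and did not pass (adjusted p = 0.382 and 0.237). On array 3 they stood at 1.46 and 1.28, apart from the other arrays. Of the 12 genes of lipid synthesis tested, only Insig1 was called, 10 had a mean above 0 and the median was 0.38. Of 22 genes of fatty acid oxidation, Acsl5 rose and Cyp4a2 fell, with a median of 0.03. Both counts stand beside 2.23% of all features that rose and 3.15% that fell.

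In amino acid metabolism Tat, the tyrosine aminotransferase that starts tyrosine breakdown, rose on every array (2.12, 0.50, 1.68 and 1.00, mean 1.33 ± 0.72, adjusted p = 0.00580). Cdo1, cysteine dioxygenase, had close values of -0.77, -0.81, -0.59 and -0.51 (mean -0.67 ± 0.15, adjusted p = 0.00775). Csad, cysteine sulfinate decarboxylase, had scattered ones of -2.22, -0.05, -1.74 and -1.07 (mean -1.27 ± 0.94, adjusted p = 0.0398), and on array 2 it was near 0. Outside this list, Baat, which joins bile acids to taurine or glycine, fell (-0.84 ± 0.44, adjusted p = 0.0119), and so did Gclm, the modifier subunit of glutamate-cysteine ligase (-0.97 ± 0.42, adjusted p = 0.00955). Cth and Gss, which also handle cysteine and glutathione, had 0.40 and 0.14 over 3 arrays and did not pass (adjusted p = 0.315 and 0.684). Hal, which starts histidine breakdown, was measured on arrays 2 to 4 and averaged 1.38 ± 0.18 (adjusted p = 0.00917 with 3 values allowed). Of the 26 amino acid genes tested on all 4 arrays 1 rose and 2 fell, beside 2.23% and 3.15% of all features. Their median was 0.03.

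Among the plasma proteins 3 of 42 rose and 2 fell, beside 2.23% and 3.15% of all features. The risers were Itih4, an inter-alpha-trypsin inhibitor heavy chain (0.91 ± 0.53, adjusted p = 0.0119), C3, the central complement component (0.90 ± 0.45, adjusted p = 0.0119), and the kininogen gene Kng2l1 (0.61 ± 0.41, adjusted p = 0.0452). The 2 probes of Kng2l1 averaged 0.35 and 0.88, and with probes kept apart it stood at 0.35 and was not called (adjusted p = 0.41); its call was also lost without any 1 of the 4 arrays. C3 stood at 1.34, 1.06, 0.92 and 0.27. The decreases were those of Ttr, the carrier of thyroid hormone and retinol-binding protein (-0.90, -0.77, -1.08 and -0.45, mean -0.80 ± 0.26, adjusted p = 0.00632), and Fga, the fibrinogen alpha chain (-0.59 ± 0.17, adjusted p = 0.0239). Alb, albumin, ran from 1.04 on array 1 to -0.38 on array 4 and did not pass (mean 0.36, adjusted p = 0.388). St6gal1, which adds sialic acid to plasma glycoproteins, rose to 0.96 ± 0.45 (adjusted p = 0.0349), and Enpp2, the secreted autotaxin that makes lysophosphatidic acid, fell on every array (-0.66, -0.91, -1.41 and -1.03, adjusted p = 0.00456).

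The remaining named genes called on the Rat Liver arrays lay within 1 log2 unit of 0. Alcam, a cell adhesion molecule (0.83), Prdx6, a peroxiredoxin (0.70), Commd5 (0.64), Enpp3 (0.61), the aminopeptidase Enpep (0.52) and the kinase anchor Akap5 (0.52) were higher. Lower were the prostacyclin synthase Ptgis (-0.75), the receptor Gpr37 (-0.73), the ribosomal protein genes Rpl5 (-0.70) and Rpl30 (-0.66), Fhit (-0.70) and the carboxylesterase Ces1f (-0.69). Pccb, a subunit of propionyl-CoA carboxylase (-0.54), Dynlt1, a dynein light chain (-0.54), and the complement regulator Cr1l (-0.53) were lower by the least. Their adjusted p values lay between 0.00580, for Alcam, and 0.0463.

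The genes of GH signalling and of its endocrine target, insulin-like growth factor, gave few calls. On the Rat Liver arrays Igf1, which the liver secretes under GH, was measured on arrays 2 to 4 at -0.16, 0.16 and -0.01. The mean was 0.00 and the adjusted p 0.996 where 3 values were enough. Igfals, which stabilises circulating IGF-I, averaged -0.05, with array 1 at -0.56 and the others between 0.05 and 0.17. Igfbp3 (0.03), Igfbp2 (-0.04), the GH receptor Ghr (0.18) and Igf2r (-0.12) also did not pass. Socs2, a STAT5 target that dampens GH signalling, gave 1.12 on array 1 and -0.06, 0.13 and 0.21 on the others (adjusted p = 0.507). Of 8 genes of this axis tested only Ptpn11, the phosphatase SHP-2, was called, with -0.51, -0.97, -0.30 and -0.56 (mean -0.59 ± 0.28, adjusted p = 0.0285). Of all features 5.38% were called. A ratio that missed the threshold does not show that the gene was unaltered.

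With the wider Rat 5K arrays, 26 genes of the axis had values on all 4 arrays, and limma called none of them in a fit with a term for the order of the dyes, with 5 of the 26 at an unadjusted p under 0.05. In that fit 1.60% of all 4691 features were called, and 717 had an unadjusted p under 0.05. Igf1 had -0.16, -0.47, 0.09 and -0.16 (estimate -0.18, adjusted p = 0.524). Cish, a STAT5 target of the SOCS family, was below 0 on all 4 arrays (-0.61, -0.61, -0.85 and -0.20) without passing (-0.57, adjusted p = 0.160). The phosphatase Ptpn1 was also low throughout (-0.70, -0.89, -0.52 and -0.89, adjusted p = 0.0744), whereas on the Rat Liver arrays it averaged -0.13. Prlr, the prolactin receptor, was above 0 on all 4 (0.29, 0.63, 0.41 and 0.58, adjusted p = 0.309), with its 5 probes between -0.13 and 1.60. Stat5b gave 0.65 and 0.48 on arrays 1 and 2 but -0.92 and -1.61 on arrays 3 and 4. Its sign differed between the 2 dye orders, as that of many features on these arrays did.

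Rat 5K arrays 1 and 2 are titled with the treated male in Cy3 and arrays 3 and 4 with it in Cy5, although the protocol text places the untreated male in Cy5 throughout. The values fall into the same pairs. Over all features, arrays 1 and 2 correlated at r = 0.66 and arrays 3 and 4 at r = 0.67, whereas the correlations across the pairs ran from -0.19 to -0.09. These are correlations across features that share probes and normalization, given as a description. Of the 4691 features with values on all 4 arrays, 2138 (45.6%) had the same sign in both pairs. No Rat 5K array was repeated in the other dye order. The dye order therefore cannot be told apart from other differences between the 2 pairs of arrays. All 4 Rat Liver arrays carry 1 dye order, so a dye effect there cannot be told apart from GH.

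**Figure D2:**
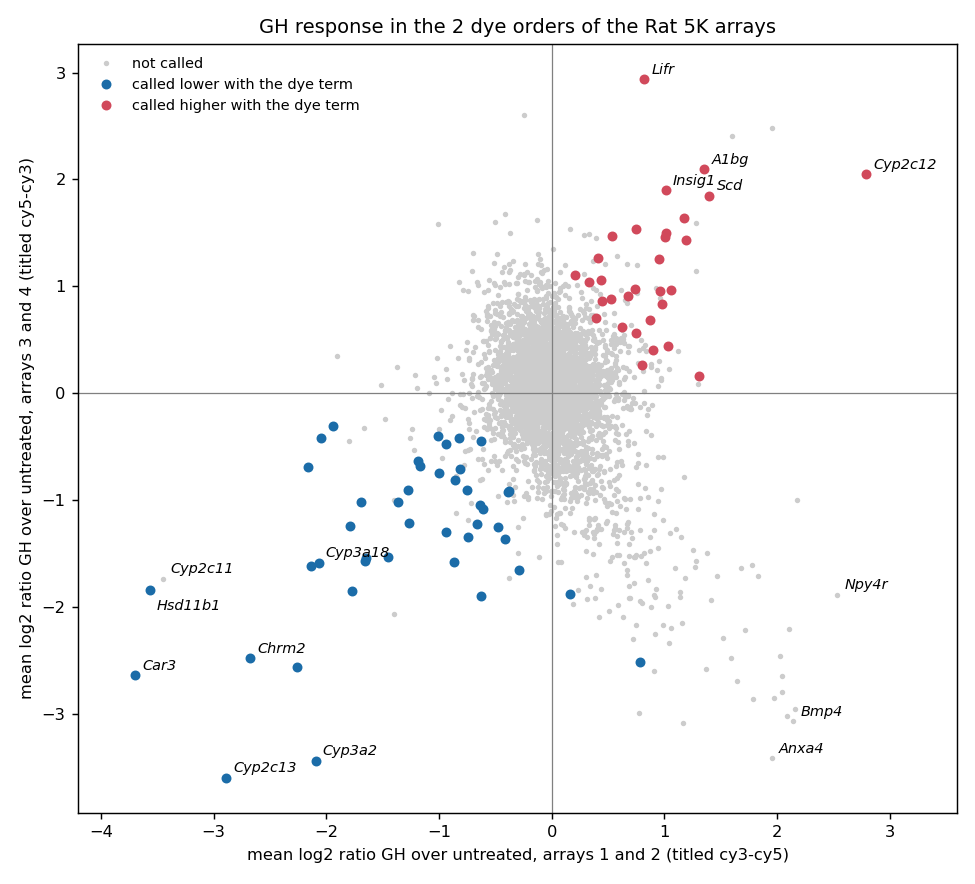
Mean log2 ratio on Rat 5K arrays 1 and 2 (horizontal) against arrays 3 and 4 (vertical) for 4691 features. Called features, blue for lower and red for higher, lie almost all at the lower left and the upper right. This is in part built in, as a change of sign makes the fitted ratio small. Genes such as Anxa4, at 1.95 and -3.42, differ in sign between the 2 pairs of arrays.

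The called increases in arrays 1 and 2 were mostly of this kind. Limma called 34 of 4703 features (0.723%) from arrays 1 and 2 alone, 17 higher and 17 lower. Of the 17 higher ones 14 had the opposite sign in arrays 3 and 4, among them Npy4r (2.53 and -1.89), Bmp4 (2.15 and -3.07) and Anxa4 (1.95 and -3.42). Acsl5 and Hal were the only named genes of the 17 that stayed above 0. Of the 17 lower features 16 stayed below 0 in arrays 3 and 4, with Tmsb4x the exception (-1.02 and 0.10). Without array 1 no feature was called, with 379 at an unadjusted p under 0.05, and without array 2 there were 2 calls.

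With a term for dye order and all 4 GH arrays, limma called 75 of 4691 features (1.60%), 31 higher (0.661%) and 44 lower (0.938%). A sign that differs between the dye orders makes the estimate of this fit small, so agreement in sign among called features is in part built in. Of the 75 features 73 had the same sign in both dye orders and 72 on all 4 arrays. The exceptions Kap, Fancc and C1s are named here after their values were seen, and Kap had 0.95, 0.62, -2.49 and -2.55. Without array 1 the count was 15, without array 2 it was 6, without array 3 60 and without array 4 16. The lowest gene, Cyp2c13, another male-predominant steroid hydroxylase, had ratios of -2.55, -3.23, -3.41 and -3.79 (estimate -3.25 ± 0.15 SE, adjusted p = 0.000154), a decrease seen about equally in both orders. Cyp3a2, the main male testosterone hydroxylase of the CYP3A family, gave -1.66, -2.53, -3.25 and -3.63 (-2.77 ± 0.36 SE, adjusted p = 0.00934). Its relative Cyp3a18 gave -1.83, -2.30, -2.16 and -1.02 (-1.83 ± 0.20 SE, adjusted p = 0.00387), beside a Rat Liver mean of -1.84.

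Car3 had -3.41, -3.98, -2.20 and -3.09 on the 5K arrays (estimate -3.17, adjusted p = 0.0239), Hsd11b1 -2.81, -4.33, -1.66 and -2.02 (-2.70, adjusted p = 0.0129) and Hao2 -1.70, -2.82, -1.93 and -3.20 (-2.41, adjusted p = 0.00462). The muscarinic receptor gene Chrm2 was low on all arrays (-2.56, -2.80, -1.83 and -3.13, adjusted p = 0.00248). Tfpt (-1.88), the connexin gene Gjb6 (-1.81) and Gpr37 (-1.61) were the next lowest. Akr1c3, a hydroxysteroid dehydrogenase, fell as well (-1.52, adjusted p = 0.0422), so that 3 of 18 steroid enzymes fell and 0 rose (0.938% and 0.661% of all features). Akr1c3, on the Rat Liver arrays, averaged -1.43 over 3 arrays. Of the 22 textbook male-biased genes tested on the 5K arrays, 9 fell and 0 rose by the fit with the dye term, with a median of -0.77 (14 had an unadjusted p under 0.05), beside 0.938% of all features lower and 0.661% higher. Of the 11 female-biased ones, 3 rose (Cyp2c12, A1bg and Adh1c) and 0 fell, with a median of 0.47. Akr1b7, an aldo-keto reductase on the male-biased list, went against the list without passing (1.74, 2.16, 0.92 and 4.05, adjusted p = 0.252). Cyp2c11 had the 4 ratios -2.32, -4.58, -1.67 and -1.80 but missed the threshold (-2.59, adjusted p = 0.107). The spread used by this fit also takes in the sex arrays, where Cyp2c11 had -4.73, -5.88, -3.42 and -1.35.

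The highest gene on the 5K arrays was again Cyp2c12, at 3.15, 2.43, 0.71 and 3.39 (estimate 2.42, adjusted p = 0.0422), with array 3 far below the others. Lifr, the receptor of leukemia inhibitory factor, had 0.74 and 0.89 in the first dye order and 2.12 and 3.76 in the second (1.88, adjusted p = 0.0182). Its size thus differed between the 2 pairs of arrays. A1bg was high in all 4 (1.40, 1.31, 1.98 and 2.21, estimate 1.72, adjusted p = 0.00355), although its 2 probes averaged 0.65 and 2.79. Scd, the stearoyl-CoA desaturase of fatty acid synthesis, had 1.89, 0.91, 1.22 and 2.47 (1.62, adjusted p = 0.0116), but on the Rat Liver arrays it stood at 0.60, 0.18, 0.39 and 0.24 and did not pass. Insig1 rose to 1.46, Syt8, a synaptotagmin, to 1.41, and Kng2l1 to 1.31. The acyl-CoA synthetase Acsl4 gave 1.06, 0.97, 1.28 and 1.73 (1.26, adjusted p = 0.00623), and its relative Acsl5 nearly equal values of 1.11, 1.01, 0.98 and 0.96 (1.01, adjusted p = 0.00387). The alcohol dehydrogenase Adh1c (1.23) and Tat (1.14) also rose.

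On the 5K arrays 3 of 25 genes of lipid synthesis rose and none fell (Scd, Insig1 and Fdps, the farnesyl diphosphate synthase, at 0.55). Of all features 0.661% rose and 0.938% fell. The ratio was above 0 for 23 of the 25, and the median was 0.35 against 0.02 for all features tested. Srebf1, which encodes a master regulator of these genes, had 0.14 and -0.38 in the first dye order and 1.33 and 1.08 in the second (adjusted p = 0.309). Pdk4, a kinase that restrains pyruvate oxidation, rose to 0.68 (adjusted p = 0.0422), and on the Rat Liver arrays it had 1.88, 0.26, 1.04 and 0.41 and missed the threshold (adjusted p = 0.0603). None of 36 liver transcription factors was called by limma's test, beside 1.60% of all features. An unadjusted p under 0.05 was found for 9 of the 36, beside 717 of all 4691 features. Of these factors Nr0b2, the orphan receptor SHP, came nearest to a call at 0.12, 0.44, 1.30 and 1.67 (adjusted p = 0.0813).

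Among plasma proteins on the 5K arrays F10, Kng2l1, Itih4 and C1s rose and Ttr, Fga and Apoa1 fell, 7 of 53 tested. In the same fit 0.661% of all features rose and 0.938% fell. C1s had -0.13, 0.54, 0.97 and 1.24, so array 1 went the other way. Apoa1, the main protein of high density lipoprotein, had -0.77, -0.87, -0.44 and -0.40, but on the Rat Liver arrays 2 to 4 it ran from 0.76 to -0.49. The ribosomal protein genes gave no limma call among 70, 10 of them having an unadjusted p under 0.05, at a median of -0.11. Over all 4691 features of this fit 1.60% were called, and 717 had an unadjusted p under 0.05. Of the 70, 56 were below 0, and in arrays 1 and 2 alone 63 were, with a median of -0.28. On the Rat Liver arrays 2 of 43 fell, beside 3.15% of all features, 25 were below 0 and the median was -0.04. Limma called none of 30 genes of oxidative phosphorylation on the 5K arrays, beside 1.60% of all features (2 had an unadjusted p under 0.05, beside 717 of all 4691 features). Of 52 proteasome and chaperone genes only the disulfide isomerase Pdia4 rose (0.79), beside 0.661% of all features. Of 28 cell cycle genes Cdc25b fell (-1.04), beside 0.938% of all features.

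Markers of other liver cell types gave no limma call on either kind of array, with 1 of 7 on the Rat Liver and 6 of 38 on the 5K arrays at an unadjusted p under 0.05. Over all features 5.38% on the Rat Liver and 1.60% on the 5K arrays were called. An unadjusted p under 0.05 was found for 165 of all 985 and 717 of all 4691 features. Among so few markers the lack of a call therefore shows little. On the 5K arrays 7 macrophage, 7 lymphocyte, 11 stellate, 5 endothelial and 5 bile duct markers had medians between -0.14 and 0.08. The 3 red cell markers averaged -0.63 and -0.50 on arrays 1 and 2 and -0.08 and 0.30 on arrays 3 and 4, and the 1 such gene on the Rat Liver arrays had -1.11, -0.46, -0.40 and 0.03. Of the 9 hepatocyte markers tested on the 5K arrays Ttr and Apoa1 fell and Tat rose, beside 0.938% and 0.661% of all features. The mean of the hepatocyte markers was highest on Rat Liver array 1 (0.63) and lowest on array 4 (-0.10). The part of these shifts in the other results was not tested.

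The 2 kinds of array can be set side by side for 757 genes tested on both. They share the animals, and the tables were normalized separately, so this is a technical comparison. The sign on the Rat Liver arrays and in the 5K fit with dye term was the same for 484 of the 757 (63.9%). Among the 39 genes of these that were called on the Rat Liver arrays it was the same for 34 (87.2%), and for 29 (74.4%) it was also the same in each dye order. Called on both kinds were 17 genes, 43.6% of the 39 and 56.7% of the 30 called on the 5K arrays. Of these 7 rose (Acsl5, Cyp2c12, Cyp2c23, Insig1, Itih4, Tat and, by the mean of its probes, Kng2l1) and 10 fell (Baat, Car3, Ces1f, Cyp3a18, Cyp4a2, Enpp2, Fga, Gpr37, Hsd3b5 and Ttr).

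**Figure D3:**
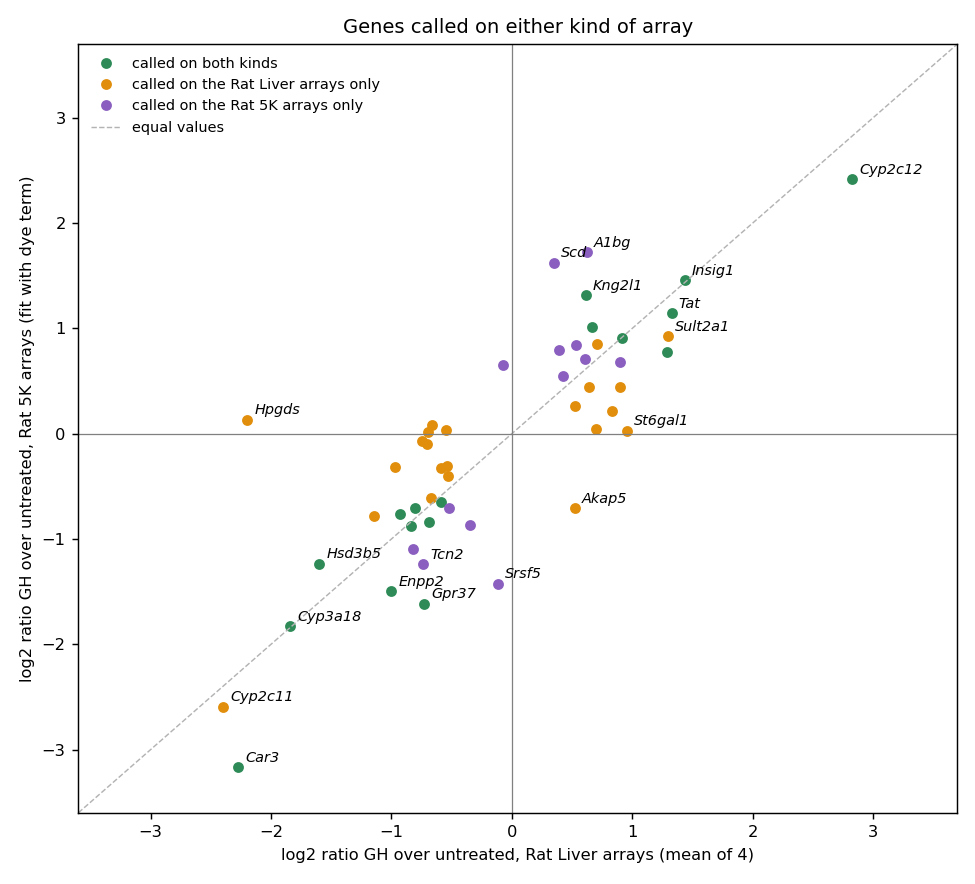
Log2 ratio of GH-infused over untreated male on the Rat Liver arrays (horizontal, mean of 4) against the Rat 5K arrays (vertical, fit with dye term) for the 52 genes tested on both and called on either. The 17 genes called on both kinds, in green, share their sign; Hpgds and Akap5 are among those that do not.

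Hpgds showed the sharpest disagreement. Its mean was -2.20 on the Rat Liver arrays, with every array at -1.74 or lower, but -0.41, -0.56, 0.69 and 0.80 on 5K arrays 1 to 4 (estimate 0.13, adjusted p = 0.782). Akap5 (0.52 against -0.71), Fhit (-0.70 against 0.02), Pccb (-0.54 against 0.03) and Rpl30 (-0.66 against 0.09) also changed sign. St6gal1, at 0.96 on the Rat Liver arrays, stood at 0.14, 0.21, 0.07 and -0.32 on the 5K arrays (0.03, adjusted p = 0.944). Whether the probes of the 2 kinds bind the same transcripts was not tested. By contrast Cdo1 gave -0.73, -0.02, -0.77 and -0.94 (-0.61, adjusted p = 0.0881) beside its Rat Liver mean of -0.67.

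Untreated males are the reference of both the GH and the sex arrays, but the labels do not say whether the same animals served both. If they did, the ratios of females and of GH-infused males share their denominators. Their likeness would then be in part built in. The Rat Liver arrays of both comparisons are also all titled with the same dye order. A dye effect would thus enter both ratios alike, whether or not animals were shared. Side by side on the Rat Liver arrays, the GH and the sex ratio were -2.40 and -3.11 for Cyp2c11, -5.09 and -4.21 for Sult1e1, -2.72 and -4.00 for Mup5 and -2.27 and -2.87 for Car3. They were 2.83 and 2.93 for Cyp2c12, 1.30 and 2.61 for Sult2a1 and 1.29 and 0.95 for Cyp2c23. The difference between the sex and the GH ratio itself was tested for 936 features, and limma called none (34 had an unadjusted p under 0.05). Arrays of the 2 comparisons with the same number deviated together, and with the number as a block limma called 2 features (0.214%, with 76 at an unadjusted p under 0.05), Cyp2c22 and Sqle.

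**Figure D4:**
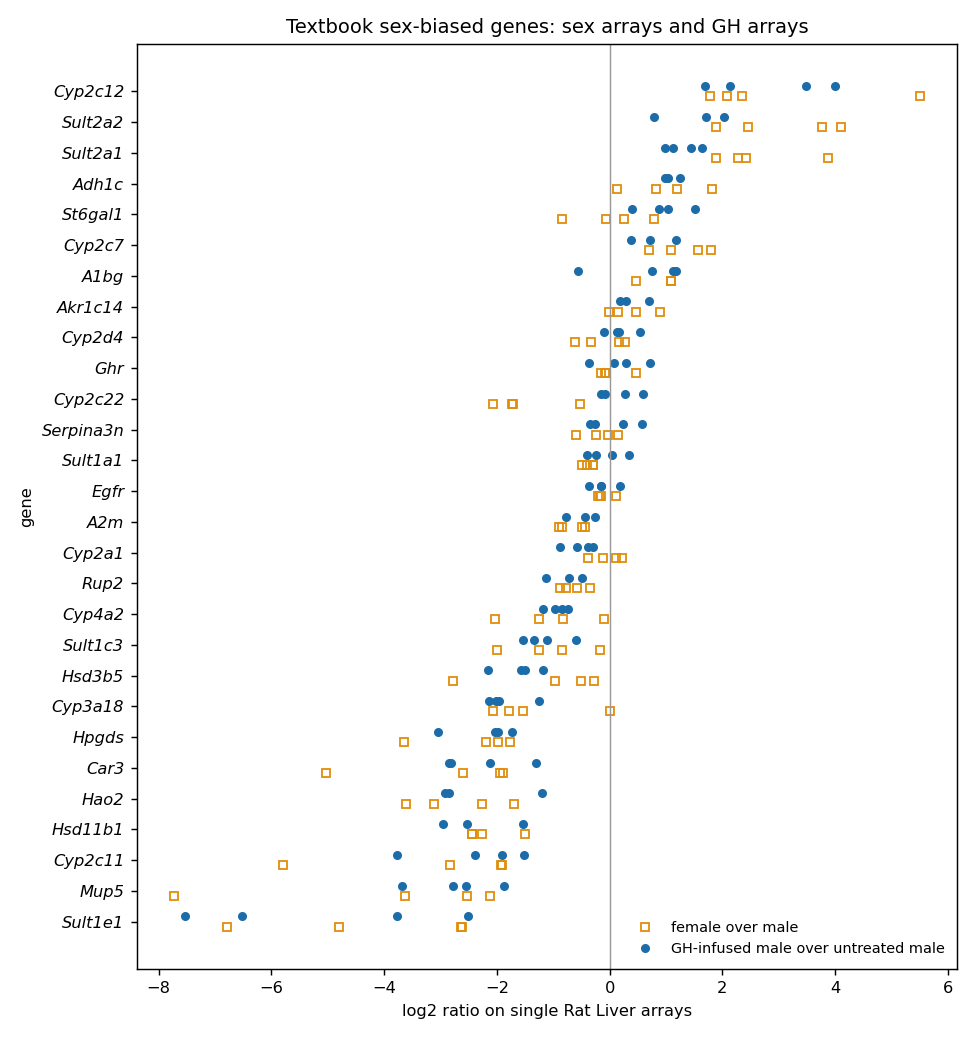
Log2 ratios on single Rat Liver arrays for 28 textbook sex-biased genes, with open squares for female over male and filled circles for GH-infused over untreated male. For Cyp2c22 all GH points, from -0.15 to 0.59, lie to the right of all sex points, with a sex mean of -1.51.

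Cyp2c22, a retinoic acid hydroxylase listed as male-biased, had GH ratios of -0.09, -0.15, 0.27 and 0.59 and a mean sex ratio of -1.51. The difference of -1.66 had an adjusted p of 0.142 without the block (SE 0.31) and 0.0115 with it (SE 0.17). On the 5K arrays the GH ratios of Cyp2c22 were 0.72, 0.11, 0.15 and 0.28. Sqle, the squalene epoxidase of sterol synthesis, had GH ratios of -0.80, 0.03, 0.48 and -0.94 against a mean sex ratio of 0.69, a difference of 1.00 (adjusted p = 0.884 without the block and 0.0357 with it). Several genes called for GH had a mean sex ratio near 0, such as Cdo1 (-0.67 for GH and -0.01 for sex), St6gal1 (0.96 and 0.03) and Cyp2a1 (-0.54 and -0.05). The SD of the sex ratios was 0.09 for Cdo1, 0.68 for St6gal1 and 0.27 for Cyp2a1. Those of St6gal1 were scattered, at 0.78, 0.26, -0.06 and -0.84. The differences between sex and GH for Cdo1, St6gal1 and Cyp2a1 did not pass in either limma fit (adjusted p with the block 0.172, 0.0642 and 0.604).

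The Rat Liver calls depend on the arrays that are pooled. Without array 1 limma called 29 features, without array 2 26, without array 3 14 and without array 4 31, against 53 with all 4. None of the 45 named genes called changed its direction in these or the other settings tried, but this was mostly built in. Every such gene was up on all 4 arrays or down on all 4, so leaving out 1 array could not turn its mean. Robust variance, GH arrays alone and 3 of 4 values leave its ratio as it is. Only median centring, scale normalization and probes kept apart could have turned it. The call of 9 of the 45 genes was kept in every setting, namely Alcam, Cdo1, Cyp2c23, Cyp3a18, Enpp2, Hpgds, Itih4, Tat and Ttr. Cyp2c11, for example, had a ratio of -1.94 without array 3 (adjusted p = 0.124), -2.40 without array 1 (0.106) and -2.56 without array 2 (0.0502). Cyp2c12 had 2.44 without array 3 (0.0577), and Mup5 from -3.01 to -2.40 with adjusted p values from 0.0581 to 0.189. Sult1e1 ran from -5.94 to -4.27 and passed each time that 1 array was left out. With all 4 arrays kept, limma's robust empirical Bayes variance ended the calls of Sult1e1 (adjusted p = 0.0501), Car3 (0.057), Csad (0.0605), Cyp2c12 (0.0789), Cyp2c11 (0.136) and Mup5 (0.199), whose ratios it leaves as they are. The limma fit of GH arrays alone kept the calls of Car3 (adjusted p = 0.00047), Csad (0.0303), Cyp2c12 (0.000722) and Cyp2c11 (0.0012). It lost those of 14 of the 45 named genes.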

How the data were processed

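Labelled cDNA of single rat livers was measured on 16 dual-channel MWG oligonucleotide arrays, of which the 8 GH arrays are described here. Per the labels, the authors applied lowess normalization (f = 0.2) to the channel ratios, and they deposited these on the log2 scale. As powers of 2, 99.96% (Rat 5K) and 99.88% (Rat Liver) of them came out as whole thousandths, with a tolerance of 0.01 thousandths. The scanner and any background correction or filter on spots are not given here, and channel intensities were not used, so signal over background is unknown and the number of arrays limits the precision. The GH arrays held 5520 to 5733 values for 5760 spots and 1060 to 1404 for 1440 spots; Rat Liver array 1 had the fewest.

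The sign of every array was turned to read as the first-named over the second-named animal of its title. Empty and repeated spots were dropped, which left 5486 and 1363 probes; 4951 and 1084 had 1 symbol in the platform annotation, 7 and 3 several and 528 and 276 none. RefSeq (GRCr8) held 4940 and 1082 of the symbols. Probes of 1 gene were averaged per array. Limma 3.58.1 (R 4.3.3) was run on each kind of array separately, with its 8 arrays in 1 fit so that the sex arrays add to the estimate of the spread, two-sided, with calls where the p adjusted after Benjamini and Hochberg was under 0.05. Features entered with a value on every GH array of the mean. The Rat 5K fit with all 4 GH arrays had a dye term of -1 or 1 by the order in the titles, and the fit was tested on simulated data. The sex and GH arrays share replicate numbers, which the labels do not explain. Deviations from the group means correlated between Rat Liver arrays of the same number at r = 0.33 to 0.43, more than with any other number, so the number was also fitted as a block. The p-values measure the spread between arrays; the labels do not say whether an animal was used on more than 1 array of a kind. The descriptions of Rat Liver arrays 3 and 4 mention a female beside a GH-treated male, and their titles were followed.

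Named genes are those called on the Rat Liver arrays with the same sign on all 4 and the 10 highest and 10 lowest called on the Rat 5K arrays. Others were picked from the GH and IGF list, the textbook sex-biased lists and the other lists, called or not. A few more are examples of a sign that differs between the dye orders. Not every member of these lists is described, and called ones left out include Rup2, Gsta1 and Ugt8 on the 5K arrays. The members, lists and rules were chosen with earlier results of these data known. Promoter motifs were searched with Python 3.11.15 and windows aligned with Biopython 1.88. Alternatives were median centring, scale normalization, robust variance, probes kept apart, GH arrays alone, 3 of 4 values, other readings of arrays 3 and 4, the block, and each array left out.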

Additional observations from a re-analysis of the deposited data

Results flagged for a closer look

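Igfals on the Rat Liver arrays was flagged because array 1, at -0.56, lay far below the others (0.05 to 0.17); its gap took 0.833 of the range, above Dixon's critical value for 4 arrays, and 1 of 58 genes checked was flagged where chance flags about 5%. The difference between the sex and the GH ratio was flagged for Cyp2c22 (-1.66) and Sqle (1.00), both called by limma only with the replicate number as a block.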

How the results depend on the processing

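On the Rat Liver arrays, 53 features were called. Median centring, scale normalization, robust variance, probes kept apart, GH arrays alone and 3 of 4 values gave 45 to 62 calls, and leaving out 1 array gave 14 to 31. Of the 45 named genes called, 24 kept their call in all of these settings that keep every array, and the fit of GH arrays alone lost 14. Rat 5K arrays 1 and 2 gave 34 calls, 128 with scale normalization, 68 with GH arrays alone, 75 with the dye term and 0 to 2 with 1 array left out. Adding arrays 3 and 4 without a dye term gave 41 calls (16 higher, 25 lower), and adding them with the sign as deposited gave 48 (40 higher, 8 lower). The dye-term fit gave 75 calls, 63 to 106 under the other settings (21 higher and 42 lower with centring) and 6 to 60 with 1 array left out. The sex-minus-GH difference gave 0 calls, 1 with probes kept apart and 2 with the replicate block, and 0 with 1 array left out; the block changed the calls of Cyp2c22 and Sqle. Genes near 0 that were not called changed sign. With scale normalization Igfals stood at 0.0080, Igfbp3 at -0.023 and Serpina3n at -0.019. With 1 array left out the ratio ran from -0.0026 to 0.36 for Ghr, -0.23 to 0.0049 for Igf2r, -0.13 to 0.11 for Igfals, -0.19 to 0.031 for Igfbp2, -0.094 to 0.12 for Igfbp3, -0.12 to 0.18 for Serpina3n and -0.20 to 0.049 for Sult1a1. The cause of these changes was not tested. Dim spots could not be recognised without intensities, which limits what a ratio near 0 can show.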
